A study of Mus musculus with 3 samples.

Results

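Serous acinar nuclei of the mouse submandibular gland were chosen from single-nucleus RNA data by a fixed rule, which 17675 of 27633 nuclei met (64.0%). A member had at least 500 detected genes, at most 5% mitochondrial counts, at least 2% of its counts from Mucl2 and under 0.2% from Smgc. It also carried at most 2 counts in all from 16 genes of other cell types. A count is 1 unique molecular identifier (UMI), that is, 1 captured RNA molecule. Mucl2 encodes an abundant secreted mucin-like product of the acinus, and Smgc a secreted product of young acini and intercalated ducts.

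The series has 3 libraries, 1 for each group of wild-type mice. The glands were from mice without treatment, from irradiated mice given saline, or from irradiated mice given pilocarpine, and each library is called by its group (non-irradiated, irradiated + saline or irradiated + pilocarpine). The titles place collection 90 days after irradiation, with pilocarpine from day 30 to day 90, and the extraction protocol gives 93 days. The control names no saline, so irradiation and saline cannot be told apart. The radiation dose, the sex and number of the mice, and the hour of collection are not given in the labels. Nuclei came from fresh frozen glands by mechanical release, and were stained with DAPI and sorted by flow before droplet capture. With 1 library a group there is no replicate and no test, and every interval below covers counting error only. Values in a series of 3 stand in the same order, with the non-irradiated library first and the irradiated + pilocarpine library last.

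Serous acinar cells make the watery, protein-rich part of saliva. Acetylcholine from parasympathetic nerves acts on muscarinic receptors, chiefly Chrm3, which raise inositol trisphosphate and release calcium from the endoplasmic reticulum. Calcium opens the chloride channel Ano1 and potassium channels, chloride enters through the cotransporter Slc12a2, and water follows through Aqp5. Beta-adrenergic receptors drive the release of protein granules. Pilocarpine is a muscarinic agonist used to raise saliva flow. The comparison of the irradiated groups asks how acinar cells differ in the gland that received it.

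The rule kept 7960, 4265 and 5450 nuclei. They held 14119108, 11673022 and 13667990 UMIs, with a median of 1455.5, 2129 and 2028.5 UMIs and 949.5, 1248 and 1219.5 genes per nucleus. The median Mucl2 share was 4.89%, 5.13% and 5.76% of UMIs, which the rule itself set above 2%. Few barcodes occurred in more than 1 library: 32, 33 and 28 in the pairs saline with non-irradiated, pilocarpine with saline and pilocarpine with non-irradiated, of which 5, 6 and 11 were members in both.

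The Mucl2 step hardly separated cell types in 2 of the libraries. Mucl2 reached 2% of UMIs in 97.4%, 78.2% and 98.9% of all nuclei. Among 469, 605 and 664 nuclei rich in fibroblast, endothelial or immune genes, called non-epithelial nuclei here, it did so in 93.6%, 58.2% and 98.6%. In 428, 1303 and 254 nuclei rich in granular duct genes, it did so in 88.6%, 45.4% and 98.4%. Mucl2 RNA was thus also counted in nuclei rich in genes of other types, and most of the choosing fell to the 16 genes, which removed 2338, 2468 and 2823 nuclei. The promoter of Mucl2 is shown here because this gene defines the nuclei. The 80 bases are printed 5′ to 3′ from RefSeq GRCm38.p6, with a TATATA match in capitals whose first base lies 28 bases before the start of the gene.
Mucl2 (chr15:103899313-103899392, minus strand): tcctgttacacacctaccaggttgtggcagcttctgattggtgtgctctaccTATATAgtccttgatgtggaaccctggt
TATATA, searched on both strands in the 250 bases before each start, was present in 6.19% of 27025 genes and in 3 of 22 acinar secretory genes with a promoter entry.

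Members at the edge of the rule were few for Mucl2 and many for the 16 genes. At 2 to 2.5% Mucl2 there were 62, 143 and 19 members, and at 1.5 to 2% there were 17, 85 and 4 nuclei that met all other conditions. Exactly 2 UMIs of the 16 genes were carried by 651, 610 and 512 members, and 382, 351 and 348 other nuclei carried exactly 3. Because the limit is a number of UMIs, few of the deepest nuclei met it. Of nuclei with over 8000 UMIs that passed the other conditions, 5.77%, 24.9% and 16.5% were kept, against 82.4%, 56.8% and 66.5% of those with under 1000 UMIs. The share kept did not fall steadily with depth. At 2000 to 4000 UMIs it was 81.7%, 76.3% and 72.7%.

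The label held for most members and not for all. Counted with 92 genes of 9 other cell types, a list taken after the data were seen from the leading genes of clusters of the members, 2134 members (12.1%) carried at least 3 UMIs and 0.3% of their UMIs from another type. By library these were 837, 690 and 607 nuclei, or 10.5%, 16.2% and 11.1% of members. Duct genes were carried by 1229 of them, fibroblast genes by 520 and immune genes by 224. Their median depth was 1066, 986.5 and 1094 UMIs, against 1517, 2444 and 2171 in the remaining 15541 members, which are called stricter members below. They made up 20.2%, 57.4% and 36.5% of members with under 1000 UMIs. At 4000 to 8000 UMIs they made up 7.02%, 1.37% and 2.38%. Leaving them out thus also changed depth, and not equally in the 3 libraries. Counts of genes that follow are for all members, and the count in stricter members is given beside them where a call was gained or lost there. No doublet caller was run. The limits on genes of other types were the only step that removed doublets.

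The markers that the rule did not use were present in the members at levels above those of non-epithelial nuclei. Levels are given as CPM, the UMIs of a gene per 1000000 UMIs of the nuclei concerned. Chrm3 (chr13:9875486-10360847), the main muscarinic receptor gene, stood at 3826, 3623 and 3532 CPM in members and 1444, 554 and 1203 CPM in non-epithelial nuclei. Car6 (chr4:150187015-150201332), a secreted carbonic anhydrase, stood at 5544, 5862 and 7558 CPM against 2299.9, 1476 and 3697. Oit1 (chr14:8348937-8378754), a secreted acinar protein gene, stood at 894, 593 and 655 CPM against 310.2, 92.4 and 229.8. Aqp5 (chr15:99590782-99594829), the apical water channel, stood at 210.00, 217 and 254 CPM against 77.2, 55.8 and 81.9. Thinning to 800 UMIs left out 687, 257 and 201 shallower members and 32, 16 and 26 non-epithelial nuclei. In the thinned nuclei Chrm3 was found in 92.2%, 88.6% and 88.0% of members and in 49.0%, 17.7% and 32.3% of non-epithelial nuclei. Aqp5 was found in 15.4%, 16.4% and 17.6% against 6.18%, 3.57% and 4.39%. Before thinning these shares were 95.5%, 92.7% and 93.9% against 64.0%, 30.4% and 47.3% for Chrm3, and 28.3%, 37.4% and 40.1% against 10.7%, 8.43% and 11.6% for Aqp5. All 4 genes were therefore higher in members in each library, and non-epithelial nuclei also carried RNA of each. The lowest such levels were in the irradiated + saline library for all 4 genes. Duct nuclei carried more of this RNA. The 4 genes summed to 10473, 10296 and 12000 CPM in members and to 6741.5, 4800 and 7972 CPM in duct nuclei.

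**Figure D1:**
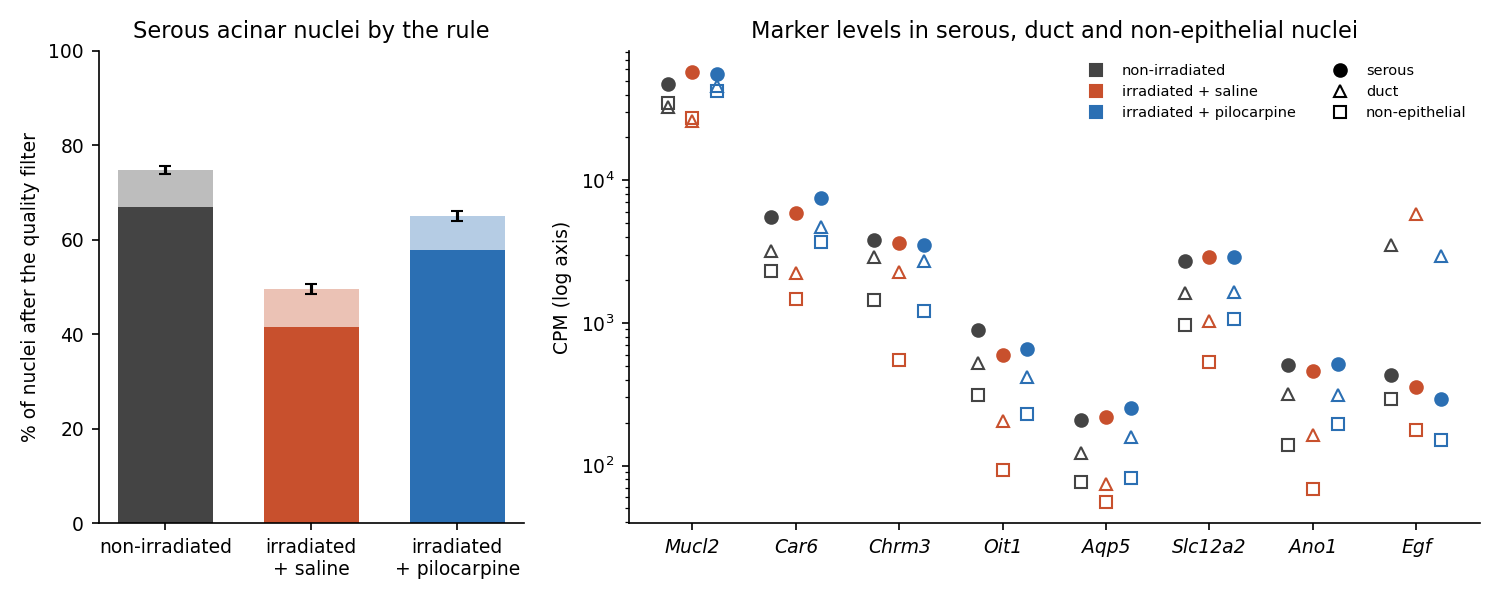
Left, members as a percentage of nuclei after the quality filter, with 95% Clopper-Pearson intervals. The pale part of each bar is the members that carried genes of another type, and the bars stand at 74.8%, 49.5% and 65.1%. Right, CPM on a log axis of 8 genes in members (filled circles), duct nuclei (triangles) and non-epithelial nuclei (squares), with colours for the 3 libraries. The members lie above the non-epithelial nuclei for the acinar genes, and the duct nuclei lie far above both for Egf.

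Serous acinar nuclei were a smaller share of the irradiated libraries. They made up 74.8% of non-irradiated nuclei (95% exact interval 74.0 to 75.7), 49.5% of irradiated + saline nuclei (48.4 to 50.5) and 65.1% of irradiated + pilocarpine nuclei (64.0 to 66.1). The difference was -25.4 percentage points for saline against non-irradiated (Newcombe interval -26.7 to -24.0), 15.6 points for pilocarpine against saline (14.1 to 17.1) and -9.78 points for pilocarpine against non-irradiated (-11.1 to -8.47). Stricter members gave 67.0%, 41.5% and 57.8%, with differences of -25.5, 16.4 and -9.16 points. With Mucl2 at 4% or more, the last difference was -0.492 points. These are shares of sorted nuclei. Nuclei rich in genes of other types met the Mucl2 limit least often in the irradiated + saline library, as given above, and the part of this in the differences was not tested.

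The leading secretory genes kept similar levels, and a few minor ones stood far apart. Prol1, a proline-rich secreted protein gene, stood at 7916, 8683 and 9366 CPM. The secretoglobin Scgb2b27, one of a family of near-identical genes, stood at 11234, 12829 and 12716 CPM. Lpo, the antibacterial lactoperoxidase of saliva, stood at 447, 603 and 582 CPM. For these 3 genes the irradiated libraries lay slightly above the non-irradiated one, by less than 1.5 times. Pip (chr6:41847535-41852065), which encodes the prolactin-inducible protein of secretory fluids, stood at 1860.00, 4052 and 3759.8 CPM. It was 2.18 times as high (2.15 to 2.21) with saline and 2.02 times as high (1.99 to 2.05) with pilocarpine as in the non-irradiated library, while both irradiated libraries were close. Oit1 was highest in the non-irradiated library and 1.51 times lower (1.46 to 1.55) with saline, which was not called by the rule given below.

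Pigr (chr1:130826684-130852249), the receptor that carries immunoglobulin A into saliva, stood at 48.4, 12.8 and 24.1 CPM. It was 3.77 times lower (3.15 to 4.53) with saline than without irradiation and 1.87 times as high (1.54 to 2.29) with pilocarpine as with saline, so that the pilocarpine library lay between the other two. Bpifa2 (chr2:154008265-154016079), a secreted protein abundant in young acini, gave 28, 1379 and 473 UMIs, or 1.98, 118 and 34.6 CPM. It was 59.6 times as high (41.03 to 89.98) with saline as without irradiation, and 3.41 times lower (3.07 to 3.797) with pilocarpine than with saline. These UMIs came from few nuclei: 9, 207 and 134 members carried any, and the 10 richest members held 100%, 36.3% and 49.3% of them. Bpifa2 stood at 0, 8.402 and 29.3 CPM in non-epithelial nuclei. Of the list of acinar secretory products, 13 genes had enough UMIs (50 in the pair) to be looked at in the first comparison. A gene was called where its whole 95% counting interval lay beyond 1.5-fold. Bpifa2 and Pip were called higher and Pigr lower with saline. Over all genes looked at, 2.60% were called higher and 0.848% lower with saline against non-irradiated (12859 genes), 0.448% and 0.371% with pilocarpine against saline (12939 genes), and 2.35% and 1.09% with pilocarpine against non-irradiated (13059 genes). In stricter members these shares were 2.49% and 1.26%, 0.296% and 0.345%, and 2.16% and 1.02%.

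The receptors and the muscarinic pathway showed few differences. The Chrm3 ratio was 0.947 with saline against non-irradiated, 0.975 with pilocarpine against saline and 0.923 with pilocarpine against non-irradiated. Chrm1, the minor muscarinic receptor gene, stood at 10.98, 13.7 and 11.3 CPM. None of 27 genes of muscarinic signal transduction was called with saline against non-irradiated, and none of 28 with pilocarpine against saline. Over all genes 2.60% were called higher and 0.848% lower in the first comparison, and 0.448% and 0.371% in the second. None in a list of this size is near these shares. The list's median log2 ratio of CPM + 1 was -0.047 and 0.010 in these comparisons, beside -0.0081 and 0.042 over all genes. Adrb1 (chr19:56722199-56733113), the beta-adrenergic receptor gene, stood at 158, 325 and 265 CPM. It was the 1 secretagogue receptor called with saline in all members, 2.06 times as high (1.95 to 2.17) as without irradiation. Adra1a (chr14:66635251-66771168), an alpha-adrenergic receptor gene, stood at 91.3, 62.2 and 45.7 CPM in all members and at 66.2, 34.1 and 33.98 CPM in stricter members. In stricter members it was called lower with saline too, at a ratio of 0.515 (0.454 to 0.583). In all members it was 1.996 times lower (1.81 to 2.2002) with pilocarpine than without irradiation.

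Calcium release genes lay close together. Itpr2 (chr6:146108299-146502223) and Itpr3 (chr17:27057304-27122223), which encode the inositol trisphosphate receptors of the acinar calcium store, stood at 292, 248 and 226 CPM and at 66.01, 56.2 and 63.4 CPM. Atp2a2 (chr5:122453513-122502225), the pump that refills the store, stood at 509, 457 and 511 CPM. Of 21 calcium genes only Atp2b4 (chr1:133699457-133801041), a plasma membrane calcium pump, was called with saline, at 12.3, 4.63 and 9.29 CPM and 2.65 times lower (1.94 to 3.67) than without irradiation. Over all genes 2.60% were called higher and 0.848% lower in this comparison, so few calls in a list of 21 are near those shares. Stricter members also had Atp2b4 called higher with pilocarpine than with saline. Calr, counted in this list as a calcium-binding chaperone, was called higher with pilocarpine against non-irradiated and is described with the chaperones.

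Few fluid secretion genes were called, as was so over all genes. None of 21 was called with saline against non-irradiated or with pilocarpine against saline. Over all genes 2.60% were called higher and 0.848% lower in the first comparison, and 0.448% and 0.371% in the second. None among 21 is near these shares. The list's median log2 ratio was -0.0053 and -0.020, beside -0.0081 and 0.042 over all genes. Slc12a2 (chr18:57878678-57946821), the basolateral chloride cotransporter, stood at 2709, 2886 and 2922 CPM. Ano1 (chr7:144588549-144751974), the apical chloride channel, stood at 509, 459.8 and 515 CPM. The calcium-gated potassium channels Kcnma1 and Kcnn4 stood at 4394, 5327 and 4834 CPM and at 791, 803 and 880.3 CPM. All of these levels lay within 1.5 times of each other across libraries, and each was at least 2 times that of non-epithelial nuclei. Cftr (chr6:18170687-18322768), a chloride channel known from ducts and ionocytes, was called lower with pilocarpine against non-irradiated among all members, at 25.1, 20.9 and 11.8 CPM. This call was not kept in stricter members, where Cftr stood at 11.7, 8.61 and 6.64 CPM.

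Genes of granule release and of acinar identity included single large differences. Stxbp2 (chr8:3630955-3643644), a docking factor of secretory granules, stood at 115, 68.02 and 62.8 CPM and was 1.696 times lower (1.56 to 1.85) with saline. Esrrg (chr1:187608791-188214885), an orphan nuclear receptor that drives mitochondrial genes, stood at 4503, 2779 and 2466 CPM. It was 1.62 times lower (1.599 to 1.64) with saline and 1.83 times lower (1.802 to 1.85) with pilocarpine than without irradiation. Etv5 (chr16:22381309-22439719), a transcription factor downstream of growth factor receptors, stood at 6.87, 37.1 and 38.9 CPM, the lowest in the non-irradiated library. Non-epithelial nuclei had 40.96, 51.9 and 49.3 CPM of Etv5. Bhlha15 (chr5:144190286-144194441), which shapes the secretory cell, and Xbp1 (chr11:5520659-5525893), which expands the endoplasmic reticulum, stood at 171, 177 and 153 CPM and at 318, 388 and 390.4 CPM. Sox10, an early acinar factor, stood at 122, 182 and 210.4 CPM and was 1.72 times as high (1.62 to 1.83) with pilocarpine as without irradiation. Among 27 such factors 2 were called with saline against non-irradiated, Etv5 higher and Esrrg lower. Of all genes looked at, 2.60% were called higher and 0.848% lower in this comparison, so few calls in a list of 27 are near those shares.

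**Figure D2:**
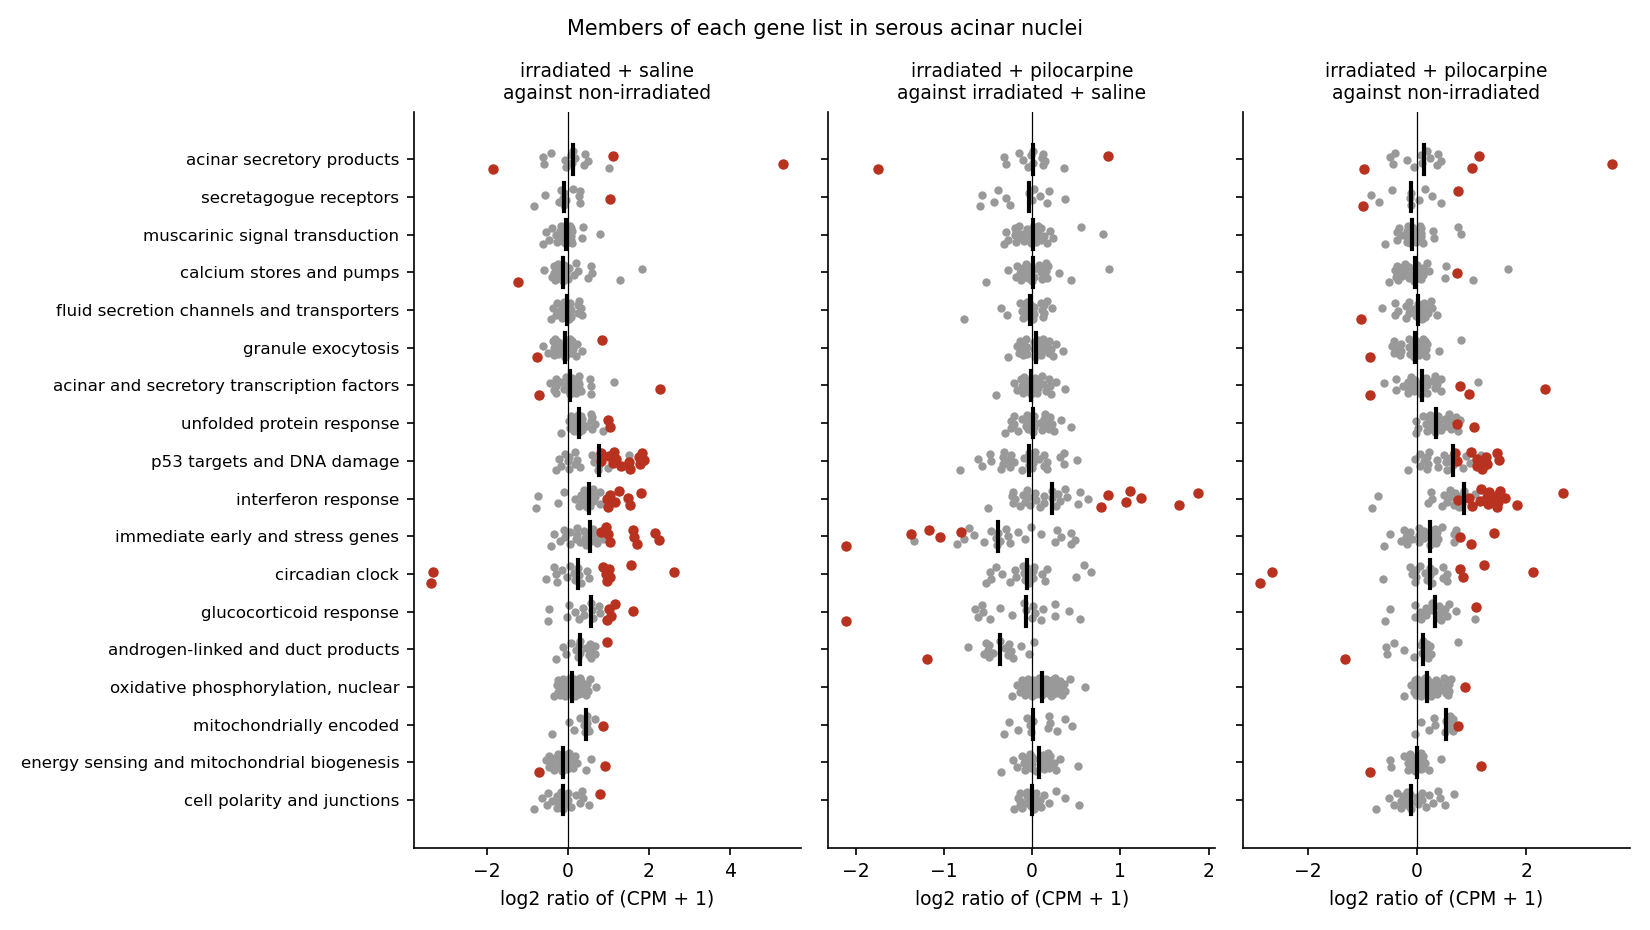
Each point is a gene of a list, placed by its log2 ratio of CPM + 1 between the libraries named above each panel. Genes with at least 10 UMIs in the pair are drawn, called genes are red and black bars are list medians. The medians of the p53 and interferon lists lie to the right of 0 in both comparisons with the non-irradiated library. The immediate early list lies to the right of 0 with saline against non-irradiated (median 0.54) and to the left with pilocarpine against saline (median -0.38).

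Chaperone genes of the endoplasmic reticulum were slightly higher in both irradiated libraries. The unfolded protein response raises these genes when the secretory load of the reticulum is high. Of 29 measured genes of the list 28 lay above 0 with saline against non-irradiated (median log2 ratio 0.29) and 27 with pilocarpine against non-irradiated (0.34), while pilocarpine against saline gave 0.011. Only 2 of 28 were called in each comparison with the non-irradiated library: Dnajb9 and Ddit3 with saline, Sdf2l1 and Calr with pilocarpine. Of all genes 2.60% and 2.35% were called higher in these comparisons, with medians of -0.0081 and 0.034. In stricter members Ddit3 was also called with pilocarpine, which made 3 of 28. Dnajb9 (chr12:44205559-44210326), a co-chaperone, stood at 12.9, 27.8 and 22.3 CPM. Ddit3 (chr10:127290774-127296288), a stress transcription factor, stood at 14.9, 30.8 and 26.6 CPM. Both were highest with saline, 2.15 times as high (1.79 to 2.596) and 2.06 times as high (1.74 to 2.46) as without irradiation.

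Hspa5 (chr2:34771970-34777547), the main chaperone of the reticulum, stood at 70.97, 106 and 89.4 CPM. Hsp90b1, its partner chaperone, stood at 124, 152 and 144 CPM, and both were highest with saline by less than 1.5 times. Calr (chr8:84841850-84846934), the chaperone calreticulin, stood at 55.5, 83.4 and 93.3 CPM. Pdia6, a disulfide isomerase, stood at 33.8, 43.5 and 51.8 CPM, and both were highest with pilocarpine. Calr was 1.68 times as high (1.54 to 1.84) with pilocarpine as without irradiation. Creld2, a secreted stress protein, stood at 12.2, 14.05 and 13.8 CPM and hardly differed. Herpud1 (chr8:94386438-94395377), which acts in the removal of misfolded proteins, stood at 307, 370.00 and 464 CPM, and no interval of it lay wholly beyond 1.5-fold.

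Promoters of these genes are shown because most of the list lay on the same side and part of it shares a known element, the endoplasmic reticulum stress response element. The motif, CCAAT and CCACG with any 9 bases between them, was searched on both strands in the 250 bases before each start. It was found in 8 of 27 genes of the list with a promoter entry (29.6%) and in 0.130% of 27025 genes. A match is a description of the letters and was not tested for binding. Stretches of 80 bases from RefSeq GRCm38.p6 are printed 5′ to 3′ along the gene, with the match in capitals.
Hspa5 (chr2:34771995-34772074, plus strand): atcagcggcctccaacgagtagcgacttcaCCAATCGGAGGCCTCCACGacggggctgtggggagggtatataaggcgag
Hsp90b1 (chr10:86705502-86705581, minus strand): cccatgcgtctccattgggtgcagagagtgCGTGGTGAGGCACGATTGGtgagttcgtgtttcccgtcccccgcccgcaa
Calr (chr8:84847044-84847123, minus strand): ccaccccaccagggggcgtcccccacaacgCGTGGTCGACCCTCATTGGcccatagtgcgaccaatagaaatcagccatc
Creld2 (chr15:88819490-88819569, plus strand): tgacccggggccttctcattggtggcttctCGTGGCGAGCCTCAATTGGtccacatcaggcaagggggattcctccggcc
Pdia6 (chr12:17266461-17266540, plus strand): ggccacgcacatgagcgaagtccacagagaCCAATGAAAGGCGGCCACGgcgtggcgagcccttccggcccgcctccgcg
The match lies on the gene's own strand in Hspa5 and Pdia6, and on the opposite strand in the others. The start is that of RefSeq, which for Hspa5 lies inside the span given above from GENCODE. The first base printed in capitals lies 65, 107, 162, 126 and 98 bases before the start in the order printed. Hsp90b1 holds 2 matches. Genes with the element did not share one pattern: Hspa5 was highest with saline, Calr with pilocarpine, and Creld2 hardly differed.

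Targets of p53, the factor that answers DNA damage, were higher in both irradiated libraries. With saline against non-irradiated 13 of 26 genes looked at were called higher and 0 lower (median log2 ratio 0.79), and with pilocarpine against non-irradiated 11 of 26 higher and 0 lower (0.66). Between the irradiated libraries none of 29 was called, and the median was -0.041. Beside these, 2.60% and 2.35% of all genes were called higher in the comparisons with the non-irradiated library, with medians of -0.0081 and 0.034. In stricter members 11 of 25 were called higher with saline and 11 of 24 with pilocarpine against non-irradiated. Eda2r (chrX:97333840-97377216), a member of the tumour necrosis factor receptor family, stood at 11.5, 41.9 and 34.5 CPM. It was 3.63 times as high (3.03 to 4.36) with saline and 2.99 times as high (2.498 to 3.597) with pilocarpine as without irradiation. Pvt1 (chr15:62037986-62378096), a noncoding RNA with p53-induced forms, stood at 22.3, 81.98 and 63.8 CPM. Zmat3, an RNA-binding p53 target, stood at 17.99, 53.6 and 42.4 CPM. For Eda2r, Pvt1 and Zmat3 the irradiated libraries lay far above the non-irradiated one, with saline the higher.

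Among other p53 targets, Gdf15 and Cdkn1a were scarce. Gdf15 (chr8:70629393-70632456), a stress cytokine, gave 11, 65 and 45 UMIs, or 0.779, 5.57 and 3.29 CPM. Cdkn1a (chr17:29090976-29100727), the cell cycle inhibitor p21, gave 4, 31 and 26 UMIs and fell short of the 50 UMIs asked for in both comparisons with the non-irradiated library. Ccng1, a cyclin induced by p53, stood at 13.2, 30.4 and 31.2 CPM, and Aen, a nuclease of the same response, at 13.7, 30.9 and 30.3 CPM. Both lay close together in the irradiated libraries. Non-epithelial nuclei showed a like order for Pvt1, at 14.04, 71.04 and 66.6 CPM, and for Eda2r, at 5.85, 30.6 and 24.6 CPM. The part of free RNA in these differences was not tested.

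Interferon response genes were also higher in the irradiated libraries, and antigen presentation genes were higher with pilocarpine than with saline. With saline against non-irradiated 8 of 29 genes were called higher and 0 lower (median 0.53), and with pilocarpine against non-irradiated 16 of 30 higher and 0 lower (0.87). With pilocarpine against saline 7 of 30 were called higher and 0 lower (0.22). Of all genes looked at, 2.60%, 2.35% and 0.448% were called higher in these comparisons in the order given, with medians of -0.0081, 0.034 and 0.042. In stricter members 7 of 27 were called higher and 1 lower with saline against non-irradiated, 17 of 28 higher with pilocarpine against non-irradiated and 8 of 28 higher with pilocarpine against saline. The lower gene was Cmpk2, a mitochondrial nucleotide kinase gene, at 7.01, 3.68 and 3.51 CPM in all members and 7.19, 2.69 and 3.44 CPM in stricter members. The 7 genes higher with pilocarpine against saline in all members act in antigen presentation by class I molecules. Ifi27l2a (chr12:103442167-103443680), an interferon-induced mitochondrial protein gene, stood at 21.5, 78.3 and 68.3 CPM. Usp18 (chr6:121245906-121270917), a brake on the interferon receptor, stood at 16.3, 47.97 and 33.7 CPM. Oas2 (chr5:120730333-120749853), an antiviral synthetase, stood at 3.82, 13.1 and 16.2 CPM. Ifi27l2a and Usp18 were highest with saline and Oas2 with pilocarpine, and all 3 were lowest in the non-irradiated library.

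Nlrc5 (chr8:94434356-94527272), the transactivator of class I genes, gave 131, 196 and 879 UMIs, or 9.28, 16.8 and 64.3 CPM. It was 3.83 times as high (3.28 to 4.49) with pilocarpine as with saline. An Nlrc5 UMI was found in 1.46%, 3.94% and 11.9% of members. H2-K1, a class I heavy chain gene, stood at 151, 183 and 432 CPM and was 2.36 times as high (2.24 to 2.48). H2-D1, another heavy chain gene, stood at 71.5, 104 and 179 CPM and was 1.72 times as high (1.61 to 1.85). These heavy chain genes are related in sequence, and whether counts were wrongly split between them was not tested. B2m, the light chain gene, stood at 7.58, 10.5 and 22.97 CPM and was 2.198 times as high (1.78 to 2.73). Each of these 4 genes had its highest level in the pilocarpine library and its lowest in the non-irradiated one.

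The peptide supply genes had another order. Tap1, a subunit of the peptide transporter, stood at 18.4, 17.3 and 32.1 CPM. Psmb9 (chr17:34181987-34187764), a subunit of the immunoproteasome, stood at 4.46, 3.598 and 13.6 CPM, and Psmb8, another subunit, at 2.05, 2.91 and 7.46 CPM. Tap1 and Psmb9 were at similar levels in the non-irradiated and saline libraries and higher with pilocarpine, 1.86 times (1.57 to 2.204) and 3.78 times (2.69 to 5.42) the saline level.

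Immune genes moved in part with these genes. The summed level of 3 immune markers that the rule did not use was 20.9, 33.2 and 37.2 CPM in members and 52.7, 293 and 145 CPM in non-epithelial nuclei, with none of the markers at 0. In stricter members, where these sums were 11.3, 12.3 and 16.2 CPM, Nlrc5 stood at 7.11, 12.96 and 59.3 CPM, H2-K1 at 145, 173 and 426 CPM and B2m at 4.64, 5.83 and 17.3 CPM. The calls for these 3 genes were kept there. The choice of stricter members left out nuclei with immune genes, so their lower immune sums are no separate evidence. In non-epithelial nuclei Nlrc5 stood at 44.5, 115 and 135 CPM, H2-K1 at 219, 338 and 438 CPM and B2m at 94.8, 202 and 148 CPM. With saline all 3 genes were lower in members than in non-epithelial nuclei. With pilocarpine Nlrc5 and B2m were lower in members, and H2-K1 was close in both classes.

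Interferon-stimulated response elements are shown for 3 genes of the list. The motif, GAAA repeated after any 2 bases, was found on either strand in 10 of 25 genes of the list with a promoter entry (40%) and in 3.46% of 27025 genes. The stretches are printed as above, with the match in capitals.
B2m (chr2:122147513-122147592, plus strand): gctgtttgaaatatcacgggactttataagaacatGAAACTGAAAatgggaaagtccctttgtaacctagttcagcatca
Oas1a (chr5:120907526-120907605, minus strand): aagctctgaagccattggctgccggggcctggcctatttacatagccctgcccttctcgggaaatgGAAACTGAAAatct
Stat2 (chr10:128270248-128270327, plus strand): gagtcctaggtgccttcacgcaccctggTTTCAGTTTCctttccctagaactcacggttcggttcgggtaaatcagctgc
The matches begin 139, 14 and 222 bases before the start. Oas1a holds 2 matches. Stat2 carries its match on the opposite strand. Oas1a, an antiviral synthetase of a family of near-identical genes, stood at 1.98, 6.17 and 7.39 CPM, and Stat2, a subunit of the interferon-activated factor, at 199, 280.2 and 308 CPM. Of these 3 genes only B2m was called with pilocarpine against saline.

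Immediate early genes were highest with saline. These genes answer growth factor, calcium and stress signals within minutes. With saline against non-irradiated 9 of 22 were called higher and 0 lower (median log2 ratio 0.54), and with pilocarpine against saline 5 of 22 were called lower and 0 higher (-0.38). With pilocarpine against non-irradiated 3 of 22 were called higher (0.23). All genes gave 2.60% higher, 0.371% lower and 2.35% higher in the same order, with medians of -0.0081, 0.042 and 0.034. In stricter members the counts were 8 of 20 higher, 6 of 21 lower and 2 of 20 higher in the same order. Dusp1 (chr17:26505590-26562128), a phosphatase that stops MAP kinases, stood at 8.07, 26.7 and 5.41 CPM. It was 3.31 times as high (2.66 to 4.14) with saline as without irradiation and 4.94 times lower (3.82 to 6.45) with pilocarpine than with saline. Dusp5 (chr19:53529109-53542431), a phosphatase of ERK, stood at 16.01, 52.2 and 19.5 CPM and was 2.68 times lower (2.32 to 3.11) with pilocarpine than with saline. Both phosphatase genes had similar levels in the non-irradiated and pilocarpine libraries.

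Jun, a subunit of the AP-1 factor, stood at 7.86, 28.2 and 13.1 CPM. Nr4a1, an orphan nuclear receptor induced by calcium and cyclic AMP, stood at 67.1, 139 and 79.02 CPM. Ier3 (chr17:35821684-35822923), a survival regulator, stood at 2.83, 16.2 and 6.66 CPM. All 3 were called higher with saline than without irradiation and lower with pilocarpine than with saline. Sik1 (chr17:31844250-31855804), a kinase induced by cyclic AMP that belongs to none of the lists used here, stood at 13.9, 27.8 and 5.93 CPM. It was 4.68 times lower (3.66 to 6.05) with pilocarpine than with saline and 2.34 times lower (1.799 to 3.07) than without irradiation. Klf6, a transcription factor, stood at 16.6, 32.98 and 19.7 CPM and was called lower with pilocarpine against saline in stricter members only. In non-epithelial nuclei Dusp1 stood at 9.36, 25.2 and 13.3 CPM, Jun at 9.36, 17.6 and 13.3 CPM and Sik1 at 8.19, 26.7 and 13.3 CPM, highest with saline there too.

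Dusp1 carries a cAMP response element in its promoter, the full palindrome TGACGTCA. This motif was found in 3 of 26 genes of the immediate early list with a promoter entry and in 1.77% of 27025 genes. Another motif, the E-box CACGTG, was found in 6 of the 26 genes, Dusp1 among them, and in 6.86% of 27025 genes. The stretch is printed as above, with the cAMP response element in capitals and the E-box in small letters. The first of these begins 143 bases before the RefSeq start, which lies inside the GENCODE span given above.
Dusp1 (chr17:26508572-26508651, minus strand): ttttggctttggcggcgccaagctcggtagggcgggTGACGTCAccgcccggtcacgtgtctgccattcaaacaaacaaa

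**Figure D3:**
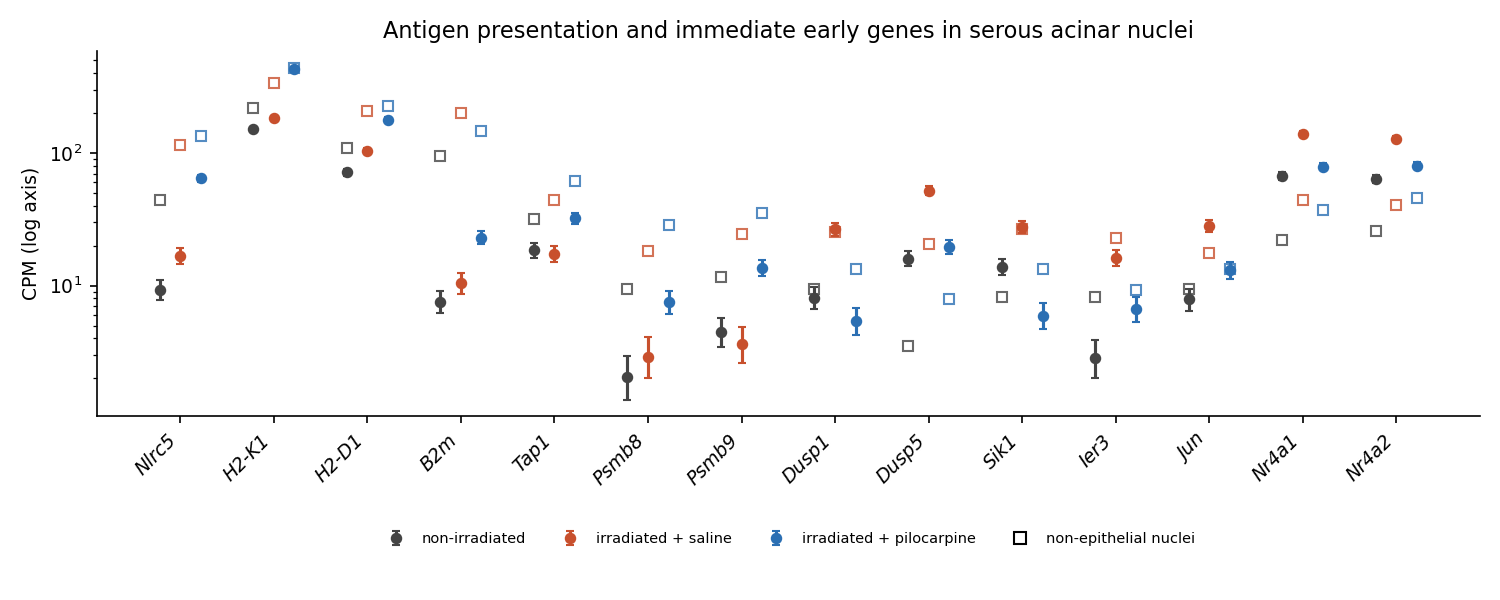
CPM on a log axis of antigen presentation genes and immediate early genes in members of each library (filled circles, with 95% Poisson intervals) and in non-epithelial nuclei (open squares). From Nlrc5 to Psmb9 the pilocarpine library is the highest of the members, and from Dusp1 to Nr4a2 the saline library is.

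Clock genes differed between the non-irradiated library and both others. The hour of collection is not given, and irradiation and hour cannot be told apart for these genes. The same limit holds for other genes compared with the non-irradiated library. Arntl (chr7:113207465-113314126) and Npas2 (chr1:39193731-39363236), the activators of the clock, stood at 31.9, 2.31 and 4.24 CPM and at 33.1, 2.31 and 3.66 CPM. They were 13.8 times lower (9.36 to 21.2) and 14.3 times lower (9.701 to 21.9) with saline than without irradiation. Per2 (chr1:91415982-91459324), a repressor of the clock, stood at 17.1, 112 and 77.7 CPM, and Per3, another repressor, at 139, 287 and 242 CPM. The activators were thus high and the repressors low in the non-irradiated library, and the irradiated libraries were closer to each other. With saline against non-irradiated 7 of 23 clock genes were called higher and 2 lower, and with pilocarpine against saline none. Of all genes 2.60% were called higher and 0.848% lower in the first comparison, and 0.448% and 0.371% in the second. Non-epithelial nuclei had the same order, with Per2 at 15.2, 69.5 and 55.9 CPM and Arntl at 42.1, 9.93 and 10.7 CPM.

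Glucocorticoid-responsive genes had a median log2 ratio of 0.58 with saline against non-irradiated, where 5 of 15 were called higher, Dusp1 and Per1 among them. All genes had a median of -0.0081 in this comparison, with 2.60% called higher. Ddit4 (chr10:59949669-59951834), an inhibitor of mTOR, stood at 5.595, 13.9 and 12.9 CPM, and Tsc22d3, a classical glucocorticoid target, at 103, 162 and 125 CPM. Ddit4 was high in both irradiated libraries, whereas Tsc22d3 passed 1.5-fold in no interval. Mitochondrially encoded genes had a median of 0.45 with saline and 0.54 with pilocarpine against non-irradiated, with 1 of 12 called higher in each. The shares of all genes called higher were 2.60% and 2.35%. In stricter members these medians were 0.30 and 0.45, and none of 11 was called. Such RNA is not made in the nucleus. The 52 nuclear genes of oxidative phosphorylation had medians of 0.099 and 0.18, with 0 and 1 called, and none of 52 in stricter members.

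Duct products set the scale of duct RNA in these nuclei. Egf (chr3:129677565-129755316), a growth factor of granular duct cells, stood at 428, 353 and 292 CPM in members and 351, 302 and 288 CPM in stricter members. The 5 granular duct markers that the rule did not use summed to 1098, 1036 and 866 CPM in members and to 9314, 15531 and 8585 CPM in duct nuclei. Pde1c (chr6:56069804-56569103), a calcium-stimulated phosphodiesterase gene, was called lower with pilocarpine against saline, at 116, 127 and 71.4 CPM, and turned slightly higher with pilocarpine in stricter members, at 57.2, 31.3 and 37.2 CPM.

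Genes with the largest differences between saline and non-irradiated members were mostly unlisted ones. Mup5 (chr4:61831319-61835233), a pheromone-binding protein gene of a family of near-identical copies, stood at 66.2, 603 and 321 CPM. It was 9.12 times as high (8.51 to 9.77) with saline as without irradiation and 1.88 times lower (1.81 to 1.95) with pilocarpine than with saline. A Mup5 UMI was found in 6.88%, 33.4% and 24.9% of members, and in 3.93%, 21.1% and 14.0% after thinning to 800 UMIs. Thinned non-epithelial nuclei had one in 2.97%, 8.66% and 8.46%. Ces1d (chr8:93166068-93197838), a carboxylesterase gene with close copies, stood at 9.14, 117 and 44.8 CPM. Gpc5 (chr14:115092215-116525179), a heparan sulfate proteoglycan gene, stood at 7.79, 58.1 and 23.9 CPM. For Mup5, Ces1d and Gpc5 the pilocarpine library lay between the others and was called against each.

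Further genes were high in both irradiated libraries. Chn2 (chr6:54039554-54301810), a GTPase regulator of small G proteins, stood at 25.2, 156 and 117 CPM. Sel1l3 (chr5:53107083-53213927) gave 10, 116 and 84 UMIs and Olfr1395 (chr11:49142274-49150453), an olfactory receptor gene, 16, 162 and 108 UMIs. All 3 were called higher in both comparisons with the non-irradiated library and not called between the irradiated ones. Chn2 in non-epithelial nuclei stood at 84.3, 129.8 and 102 CPM.

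Genes lower in the irradiated libraries included several nearly lost ones. Rnf212b (chr14:54814141-54854108), a RING finger protein gene, gave 400, 1 and 3 UMIs. Card14 (chr11:119307768-119345375), an adaptor of NF-kappa-B signalling, gave 130, 5 and 6 UMIs and was 21.5 times lower (8.98 to 67.3) with saline. Extl1 (chr4:134356372-134383850), a glycosyltransferase of heparan sulfate, gave 237, 22 and 22 UMIs. Masp2 (chr4:148602554-148615499), a protease of the complement lectin pathway, stood at 23.2, 4.88 and 4.76 CPM, and Taco1 (chr11:106066061-106073612), a translational activator of mitochondrial cytochrome oxidase, at 406, 166 and 188 CPM. Masp2 and Taco1 were not called between the irradiated libraries, where Rnf212b, Card14 and Extl1 had too few UMIs to be looked at. The difference in Rnf212b was not confined to members. A UMI of it was found in 4.71%, 0.0234% and 0.0550% of members and in 4.05%, 0.165% and 0% of non-epithelial nuclei. Extl1 and Masp2 gave few UMIs in non-epithelial nuclei, at 3, 0 and 1 and at 9, 5 and 6. The part of free RNA in these differences was not tested.

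**Figure D4:**
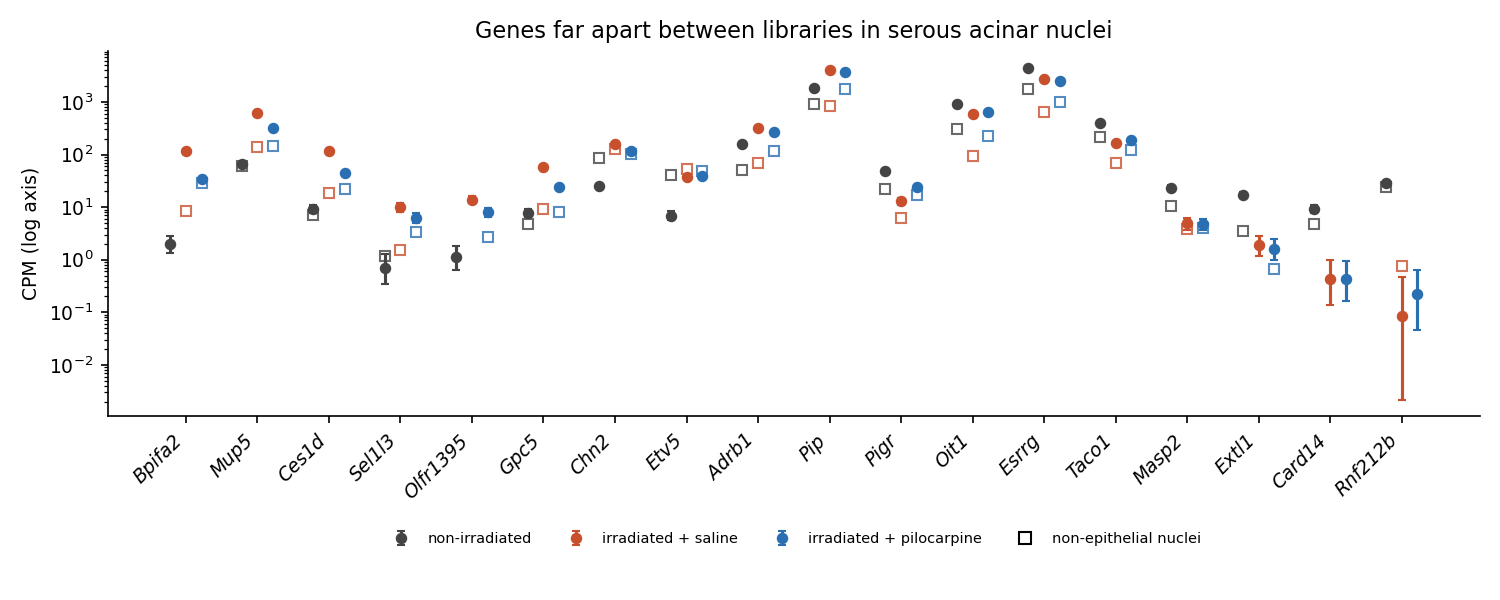
CPM on a log axis of 18 genes in members of each library (filled circles, with 95% Poisson intervals) and in non-epithelial nuclei (open squares, drawn where above 0). Bpifa2 to Pip are higher in the irradiated libraries and Pigr to Rnf212b lower, with Rnf212b at 400, 1 and 3 UMIs.

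Few genes separated pilocarpine from saline. Of 12939 genes 58 were called higher and 48 lower, and 36 and 42 of 12166 in stricter members. With ratios centred on the median ratio of all genes looked at, the split was 45 higher and 61 lower. Several calls rested on few nuclei. In 7 of the 58 and 8 of the 48 at least 50% of the UMIs of the higher library lay in its 10 richest members. Lingo2 (chr4:35706647-36951747), a neuronal adhesion gene, gave 31, 102 and 14 UMIs, of which 70 of the 102 with saline lay in 1 nucleus. Cenpe (chr3:135212537-135273611), a kinetochore motor of dividing cells, gave 9, 61 and 17 UMIs, of which 75.4% with saline lay in 10 nuclei. The summed level of 2 markers of cycling cells was 5.03, 21.8 and 13.4 CPM.

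Some higher calls were not kept in stricter members. Reln (chr5:21884454-22344702), Moxd1 (chr10:24223517-24302790), Acta2 (chr19:34241090-34255590) and Mir205hg (chr1:193507238-193510174) gave 35, 13 and 48, 19, 17 and 56, 66, 38 and 108 and 35, 25 and 77 UMIs in that order of genes. Acta2 is the smooth muscle actin of myoepithelial cells. In stricter members Reln, Moxd1 and Mir205hg had under 50 UMIs in the pair and were not looked at. Their ratios there were 2.11 (0.890 to 5.53), 4.64 (1.01 to 43.1) and 2.41 (0.979 to 6.75), against 3.15, 2.81 and 2.63 in all members. Acta2 was looked at and not called, at a ratio of 2.09 (1.295 to 3.47) against 2.43. Slc52a2 (chr15:76538832-76544608), a riboflavin transporter, gave 46, 23 and 70 UMIs, was 2.599 times as high (1.603 to 4.36) with pilocarpine, and its call was kept. Among stricter members 27 of the 58 higher calls and 33 of the 48 lower calls were kept.

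The members also varied among themselves. With nuclei thinned to 800 UMIs, the Fano factor, the variance over the mean, had a median of 1.05, 1.05 and 1.05 over genes with a mean of at least 0.05 UMIs. In all members Csmd1 (chr8:15892537-17535586), a large membrane protein gene with genes of other types in its nuclei, led each library at 13.4, 15.5 and 12.2. Among stricter members Malat1, a nuclear noncoding RNA, stood at 2.502, 5.21 and 4.995, the highest value in the non-irradiated and pilocarpine libraries. Mup5 ranked 3 in each library, at 1.87, 3.79 and 3.01. Bpifa2 was highest with saline at 8.32, where 97 of 3492 thinned nuclei held a UMI of it. Before thinning 178 of 3575 did. Nupr1, a small stress-induced chromatin protein gene, was second with pilocarpine at 3.02, and Chst9, a sulfotransferase gene, second without irradiation at 1.89. The level of Nupr1 was 132, 154 and 197 CPM. The secreted genes Scgb2b27 and Car6 were among the 6 most variable genes of stricter members in 3 and 2 libraries.

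Depth went with the level of some genes and not of others. Among stricter members with under 1000 UMIs and those with 4000 to 8000 UMIs, Mucl2 stood at 60958 and 39367 CPM without irradiation, 64394 and 56944 CPM with saline, and 87974 and 45720 CPM with pilocarpine. Chrm3 ran the other way, from 3395 to 4354, from 2957 to 3914 and from 2659 to 3978 CPM. Mucl2 thus made up more of shallow nuclei and Chrm3 less. Mup5 stood at 52.4 and 69.4 CPM, at 599 and 622 CPM and at 431 and 318 CPM in these classes, and Esrrg at 3807 and 4756, at 2358 and 2606 and at 1906 and 2596 CPM. In both classes Mup5 was highest with saline and lowest without irradiation, and Esrrg was highest without irradiation.

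**Figure D5:**
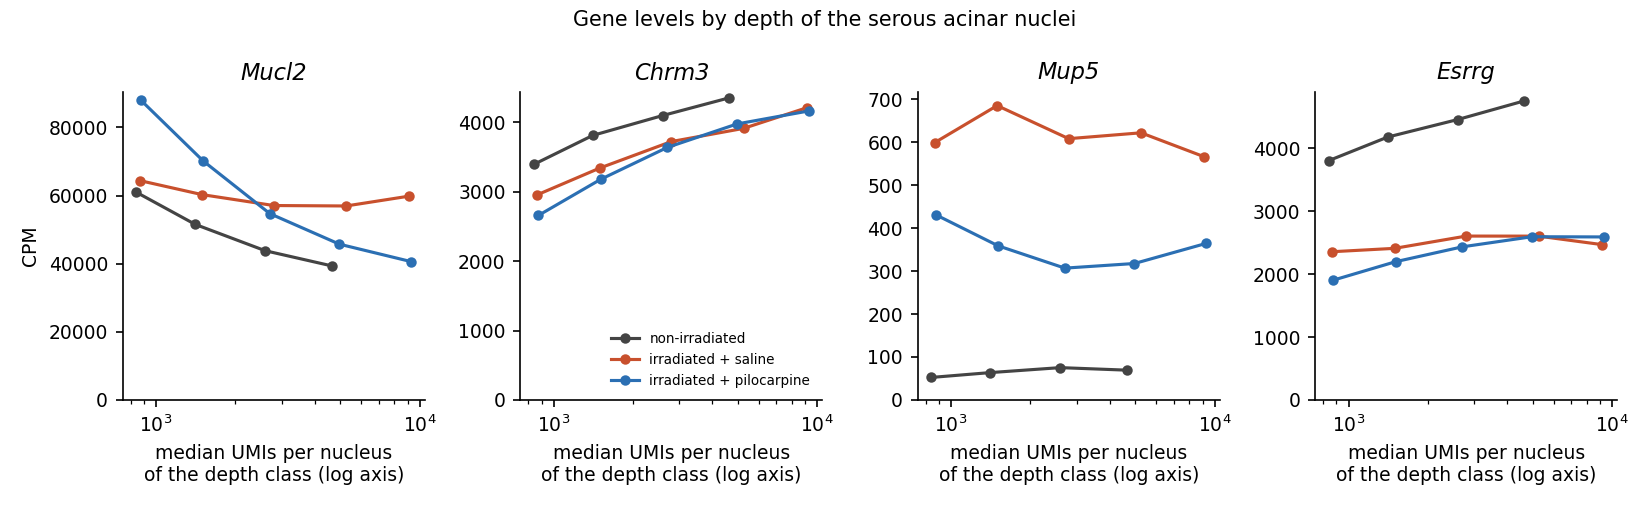
CPM of 4 genes in stricter members by depth class (under 1000, 1000 to 2000, 2000 to 4000, 4000 to 8000 and over 8000 UMIs), placed at the class's median UMIs on a log axis. Classes with under 50 nuclei are not drawn, and lines join the classes of a library. The lines of the libraries do not cross for Mup5, and Chrm3 is higher in deeper classes of each library.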

How the data were processed

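Single-nucleus RNA libraries of 3 groups of mouse submandibular glands were analysed, with 1 library a group. The deposited values are counts, UMIs per gene and barcode, made by the authors on GRCm38 using Cell Ranger 7.0.1, per the submitters' processing notes. They are whole numbers and were not normalized. Whether introns were counted and whether strand was used is not given in the sources used here. Per library the files held 12062, 10161 and 10288 barcodes.

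The members of the cell class, the gene lists and the named genes were chosen with earlier results of these data known. UMIs were summed over the members and divided by all their UMIs (CPM). CPM values have exact Poisson intervals, CPM ratios exact conditional binomial intervals, shares Clopper-Pearson and share differences Newcombe intervals, at 95%. A gene with at least 50 UMIs in a pair was called where its whole interval lay beyond 1.5-fold. List medians are of log2 ratios of CPM + 1 over genes with at least 10 UMIs. Non-epithelial nuclei carried at least 5 UMIs of the fibroblast or endothelial genes among the 16, or 3 of the immune gene Ptprc, and duct nuclei at least 5 of the duct genes.

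The text names, per comparison, the 6 genes farthest above and below no change by the nearer interval bound, the 2 farthest of each list, fixed markers and the 6 genes with the highest Fano factor. Only the 6 farthest above and below needed a CPM at least that of non-epithelial nuclei, in the library where they were higher. List members, fixed markers and genes ranked by Fano factor did not. From the farthest genes and the Fano ranking, sex-linked, mitochondrial, ribosomal, immunoglobulin and predicted genes were left out. Not all genes taken by the rule are printed. Other list members, and Nupr1's level, were named after their values were seen. Positions come from a GENCODE annotation of GRCm38. On counts simulated for saline against non-irradiated with 12875 genes looked at, 50 of 50 genes set 3 times higher, 50 of 50 set 3 times lower, 44 of 50 set 2 times higher, 40 of 50 set 2 times lower and 0 of 12675 unchanged genes were called. With no replicate library, the spread between mice could not be taken from the data for this simulation. Its counts are therefore not an error rate of the calls between groups. The intervals also do not cover UMIs clumped in few nuclei, as seen for Lingo2 and Bpifa2. Python 3.11.15, numpy 2.4.6, scipy 1.17.1 and pandas 2.3.3 were used. Alternatives are in the closing section. Results for a few genes are not reported here.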

Additional observations from a re-analysis of the deposited data

How the results depend on the processing

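Of the values for single genes under the alternatives 4084 stayed within the tolerance, 721 moved and 4 changed direction, and of the list medians 1021 stayed and 111 moved. The settings below changed 1 choice, except means over nuclei, which were also called without an interval, and the cause of each shift was not tested. The share of serous nuclei with saline minus non-irradiated was -20.1 points with a minimum of 1000 genes, -20.4 with Mucl2 at 4% or more, -21.9 with 0 UMIs of the 16 genes and -23.3 with at most 0.1% of UMIs from them. With pilocarpine minus non-irradiated it was -3.73, -0.492, -8.12 and -6.56 points in the same settings, and with pilocarpine minus saline 19.9 with Mucl2 at 4% or more and 13.8 with 0 UMIs. Called genes were 334 higher and 109 lower with saline against non-irradiated, 58 and 48 with pilocarpine against saline, and 307 and 142 with pilocarpine against non-irradiated. With Mucl2 at 4% or more they were 218 higher in the first, 165 higher in the second and 88 lower in the third comparison. With 0 UMIs of the 16 genes, 219 were higher in the first and 18 in the second, and with at most 0.1% of UMIs 103 were higher in the second. Thinning to 800 UMIs gave 193 higher and 45 lower, 19 higher, and 196 higher and 44 lower in the 3 comparisons. Nuclei of 1000 to 2500 UMIs gave 39 lower, 13 higher and 50 lower. Means over nuclei, called by the fold alone, gave 1382 and 455, 414 and 525, and 1431 and 448. A minimum of 200 UMIs gave 200 higher, 24 higher and 184 higher, and one of 10 UMIs gave 91 higher and 73 lower in the second. A 2-fold limit gave 131 and 24, 14 and 12, and 104 and 26. Genes at least 2 times as high as in non-epithelial nuclei gave 151 and 30, 6 and 25, and 89 and 32. The stricter members, a setting chosen after seeing the data as was leaving out shared barcodes, gave 36 higher in the second comparison. The log2 ratio of Pde1c with pilocarpine against saline was 0.18 with a minimum of 1000 genes, 0.38 with Mucl2 at 4% or more and 0.25 in stricter members, and that of Mir205hg with pilocarpine against non-irradiated was -0.12 in stricter members, each opposite to all members. Centring on the median ratio shifted log2 ratios by -0.025, 0.049 and 0.030. Depth limits scarce genes, such as Cdkn1a and Psmb8. No paired analysis was possible because there is 1 library in every group, and for the same reason no replicate could be left out.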

Other observations

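Another 4 lists had at most 2 called genes in each comparison. Cell polarity and junction genes had median log2 ratios of -0.11 with saline against non-irradiated, -0.0061 with pilocarpine against saline and -0.11 with pilocarpine against non-irradiated. Cldn3, a tight junction gene, was the 1 gene called among 23 in the first of these, at 15.02, 26.98 and 24.5 CPM. Of all genes 2.60%, 0.448% and 2.35% were called higher in these comparisons and 0.848%, 0.371% and 1.09% lower. Granule exocytosis genes had medians of -0.064, 0.038 and -0.038. In that list Vamp3, a vesicle fusion gene, stood at 8.57, 16.4 and 15.7 CPM and was called higher with saline against non-irradiated, beside the lower Stxbp2. The call of Vamp3 was not kept in stricter members, at a ratio of 1.87 (1.46 to 2.398). Energy sensing and mitochondrial biogenesis genes had medians of -0.12, 0.081 and -0.0026, and Slc25a5, the mitochondrial exchanger of ADP and ATP, stood at 16.6, 32.5 and 38.9 CPM, lowest without irradiation. Androgen-linked and duct products had medians of 0.31, -0.36 and 0.10, with 16 of 17 genes below 0 with pilocarpine against saline and 1 called. In stricter members the second median was -0.25 and none of 15 was called.

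Xist, the noncoding RNA of the inactive X chromosome, stood at 1008, 1035 and 1079 CPM in the members. The libraries were close, and the labels do not give the sex of the mice.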
